A study of Homo sapiens with 18 samples.

Results

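The tripartite motif (TRIM) genes numbered in the human gene nomenclature were followed in LNCaP, an androgen-responsive human prostate cancer cell line, exposed for 48 h to the secreted products of macrophages. Members were all genes whose symbol is TRIM followed by a number and that have a coding (NM_) RefSeq transcript, which gave 73 of the 28087 genes in the table. The coding transcript with the highest total count stood for each gene. Members were picked by symbol and transcript type alone, but they and the lists were chosen with earlier results of these data known. A set of 10 members known as interferon-induced (TRIM5, TRIM14, TRIM21, TRIM22, TRIM25, TRIM26, TRIM34, TRIM38, TRIM56 and TRIM69) was separated from the other 63.

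The libraries fall into 6 groups of 3. LNCaP cells (genotype labelled WT) received M1 conditioned medium to which 0.7 μmol/l of IKK16 was added, an inhibitor of the IκB kinases, M1 conditioned medium with an equal amount of the solvent DMSO, M1 conditioned medium alone, M2 conditioned medium, M0 conditioned medium, or RPMI with heat-inactivated serum as the control. The conditioned media came from macrophages made from the THP-1 monocytic line, unpolarised (M0) or polarised (M1, M2), and were diluted with the medium that served as the control. How the macrophages were polarised is not given in the sources used here. All groups shared a pre-incubation in low-serum medium, and the control received no DMSO. The design text names the question as what secreted factors of M1 and M2 macrophages do to gene expression in LNCaP, and what part NF-kB has in the M1 effect. Levels are CPM, gene counts scaled to a common library size after TMM normalisation, and each library is given in the order of its replicate number. Errors of levels are SD over 3 libraries, and errors of log2 fold changes are SE from the edgeR fit of all 18 libraries. A member was called higher or lower at an edgeR adjusted p under 0.05.

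TRIM proteins carry a RING finger, B-boxes and a coiled coil, and most act as ubiquitin ligases: with a ubiquitin-conjugating enzyme they attach ubiquitin to a substrate that the C-terminal domain recognises. Many members with a PRY-SPRY C-terminal domain restrict viruses or adjust the signals of RNA and DNA sensors, and several of them are switched on by interferon through STAT2, IRF9 and other interferon regulatory factors. Other C-terminal domains serve other tasks: NHL repeats and COS boxes in neurons and muscle, and a PHD finger with a bromodomain in chromatin, where TRIM24 and TRIM28 act as co-regulators, TRIM24 also of the androgen receptor.

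Promoter windows were read for a motif known from interferon-induced genes. RefSeq windows of 300 bases (250 before and 50 after the annotated start, assembly GRCh38.p14, written along the gene's strand) matched 58 of the 73 members, with 78 windows in all. Each was searched on both strands for GAAA, any 2 bases and GAAA again, the core of the interferon-stimulated response element (ISRE). The 5 windows below are examples from the interferon-induced list. Of these, 4 hold that motif in members that were higher in M1 medium. The fifth, of TRIM56, belongs to a member at least 2-fold higher and holds none. Among tested members not shown, windows of TRIM16, TRIM26 and TRIM44, also higher, and of TRIM2, which was lower, hold it too. The windows of TRIM25 and TRIM38, interferon-induced members that were also higher, hold none. They lie at chr11:4393653-4393952 (minus strand, TRIM21), chr11:5685025-5685324 (minus strand, TRIM5), chr11:5624751-5625050 (plus strand, TRIM34), chr9:98119173-98119472 (minus strand, TRIM14) and chr7:101085231-101085530 (plus strand, TRIM56). Capitals mark the motif, which reads TTTC, any 2 bases and TTTC where it lies on the other strand.
TRIM21: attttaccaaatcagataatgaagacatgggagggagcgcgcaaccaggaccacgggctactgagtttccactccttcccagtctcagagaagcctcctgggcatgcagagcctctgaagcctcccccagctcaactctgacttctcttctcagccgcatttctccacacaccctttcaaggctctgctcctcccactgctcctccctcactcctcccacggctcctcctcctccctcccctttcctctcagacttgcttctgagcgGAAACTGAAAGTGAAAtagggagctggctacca
TRIM5: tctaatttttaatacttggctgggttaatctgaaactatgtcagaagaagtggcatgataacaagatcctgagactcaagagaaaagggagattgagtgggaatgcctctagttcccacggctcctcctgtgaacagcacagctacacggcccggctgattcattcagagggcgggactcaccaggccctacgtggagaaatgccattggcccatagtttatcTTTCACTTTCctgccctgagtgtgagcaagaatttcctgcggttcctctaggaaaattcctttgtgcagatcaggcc
TRIM34: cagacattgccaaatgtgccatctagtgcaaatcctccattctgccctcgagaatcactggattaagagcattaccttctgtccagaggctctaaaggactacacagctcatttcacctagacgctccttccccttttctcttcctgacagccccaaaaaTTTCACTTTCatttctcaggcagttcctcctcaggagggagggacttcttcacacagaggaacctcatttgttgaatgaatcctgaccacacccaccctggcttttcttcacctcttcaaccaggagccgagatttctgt
TRIM14: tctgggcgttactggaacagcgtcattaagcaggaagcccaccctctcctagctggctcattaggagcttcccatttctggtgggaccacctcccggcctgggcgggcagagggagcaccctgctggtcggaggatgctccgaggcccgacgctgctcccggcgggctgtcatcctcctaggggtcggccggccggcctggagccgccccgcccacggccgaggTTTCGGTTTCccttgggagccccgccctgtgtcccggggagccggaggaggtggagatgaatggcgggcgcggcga
TRIM56: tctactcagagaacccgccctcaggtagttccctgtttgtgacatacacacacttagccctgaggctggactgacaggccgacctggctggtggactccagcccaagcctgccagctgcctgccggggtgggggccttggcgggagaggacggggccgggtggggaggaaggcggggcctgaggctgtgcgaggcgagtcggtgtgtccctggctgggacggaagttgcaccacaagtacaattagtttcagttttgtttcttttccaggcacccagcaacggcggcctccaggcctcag
Counted from 0 at the annotated start, the motif began at 17 in TRIM21, with a second, overlapping match at 23, at -27 in TRIM5, at -90 in TRIM34 and at -26 in TRIM14. The same letters stood in 6 of 10 windows of interferon-induced members (TRIM5, TRIM14, TRIM21, TRIM26, TRIM34 and TRIM69). They stood in 3 of 43 windows of the other tested members (TRIM2, TRIM16 and TRIM44) and in 3.57% of all 35116 windows. The 10 windows belong to 9 members: TRIM34 has a further window without the motif, and TRIM22 has no window. TRIM22 was therefore searched for neither motif. GGG, any 2 bases and TTTCC, a form of the NF-kB site, stood in 0 of the 10 windows of interferon-induced members, 0 of the 43 and 1.91% of all windows. At so low a share, 0 is a likely count in so few windows, so it cannot show that members lack such sites. The motif counts are matches of letters within short windows and no measure of binding.

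Of the 73 members, 45 had enough counts to be tested, 9 of them interferon-induced and 36 not. The other 28 had at most 86.5 counts over the 18 libraries, and TRIM40, TRIM51, TRIM64 and TRIM77 had none. TRIM69, a restriction factor of RNA viruses, was the interferon-induced member that could not be tested, with 39.5 counts in all. Its levels were 0.0634, 0.205 and 0.0982 CPM in M1 medium and 0.0331, 0.0707 and 0.185 CPM in control, close to the level that 3 counts give in a library (0.0899 to 0.126 CPM). Libraries held 24163992 to 33760496 gene counts, and replicate libraries of every group differed beyond sampling noise. All 10 markers of prostate epithelium were present in every group, and they summed to 2604 to 2716 CPM in M1 medium and 8388 to 8795 CPM in control, with 6 of the 10 called lower by at least 2-fold and 3 called higher. Of 15 macrophage and leukocyte markers, summed to 247.0 to 265.6 CPM in M1 medium and 228.2 to 232.3 CPM in control, CSF1R made up most, and PTPRC, MRC1, TYROBP and FCGR3A had 0 counts in the M1 libraries and ITGAX, TYROBP and FCGR3A in control. CD68 (36.9 ± 3.02 CPM in M1 medium, 4.93 ± 0.302 in control), ITGAM (19.99 ± 1.43 and 0.149 ± 0.143), LYZ (2.29 ± 0.2403 and 0.0456 ± 0.0396) and LAPTM5 (0.796 ± 0.505 and 0.0228 ± 0.0198) were called higher in M1 medium. The other 2 tested markers of that list were called lower, CSF1R (196 ± 8.44 CPM in M1 medium, 224 ± 1.95 in control, log2 fold change -0.19 ± 0.06) and SPI1 (0.131 ± 0.143 and 0.522 ± 0.131, log2 fold change -1.95 ± 0.52). The part of both marker lists in the results below was not tested, and in bulk libraries fewer cells of a kind and less RNA per cell cannot be told apart.

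M1 medium moved members of the family in both directions against control. All 9 tested interferon-induced members were higher, 4 of them at least 2-fold, with a median log2 fold change of 0.865. Of the 36 other tested members 10 were higher, 15 lower and 11 not called, with a median of 0.032. The interferon-induced list was chosen with earlier results of these data known, so this contrast is a description only. Over the 17020 genes tested, 32.9% were called higher and 31.9% lower, and the median was -0.001, against 27.8% and 41.7% of the other members. Counted at a change of at least 2-fold, 8 members were higher and 4 lower, beside 10.2% and 7.9% of all genes tested.

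**Figure D1:**
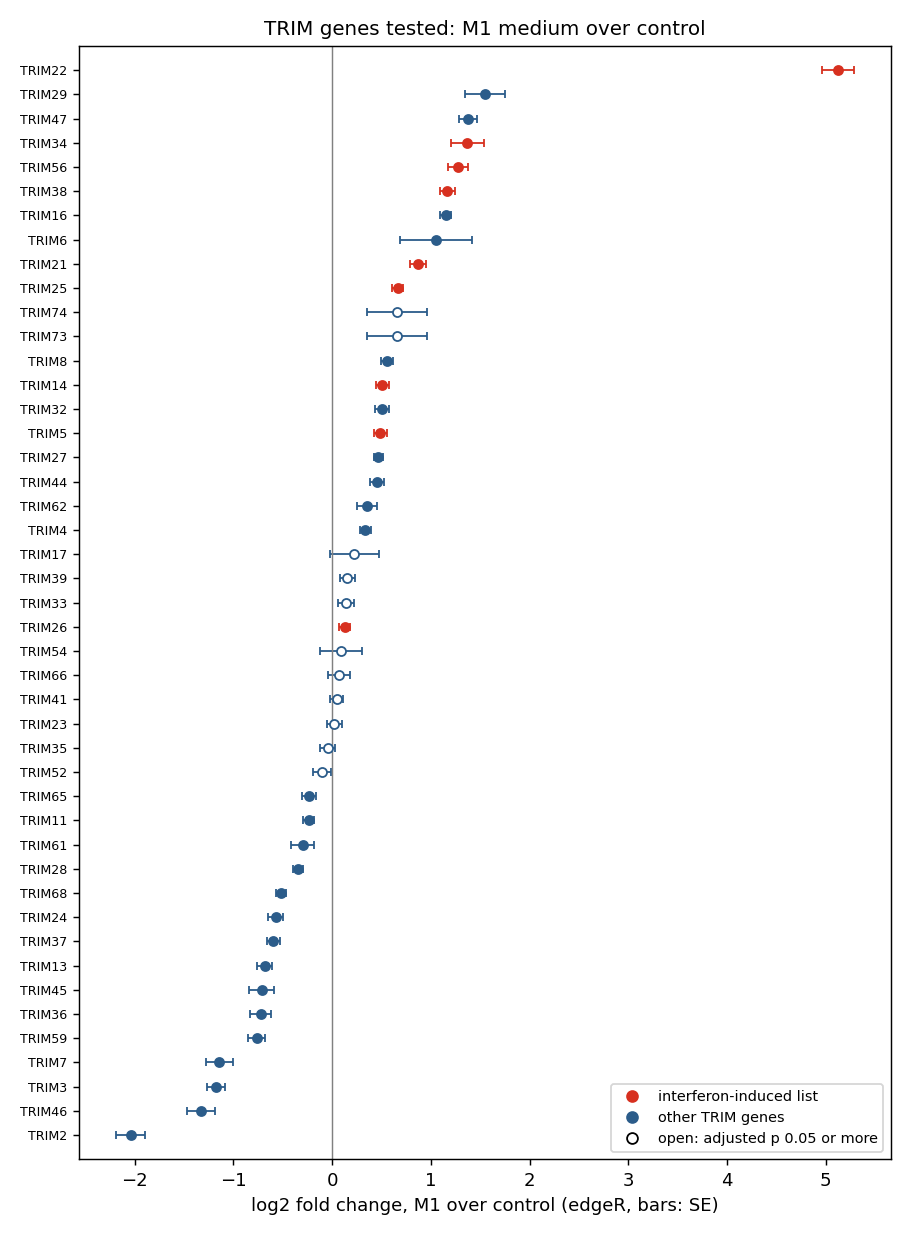
Log2 fold changes of the 45 tested TRIM members in M1 medium against control (points, with bars of 1 SE from edgeR), interferon-induced members in red and others in blue, filled where called. All 9 red points lie right of 0, with TRIM22 at 5.12, and the blue points run from 1.55 (TRIM29) to -2.04 (TRIM2).

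TRIM22, which restricts influenza virus and HIV, changed most. It measured 25.4, 26.6 and 23.2 CPM in M1 medium, against 0.7601, 0.919 and 0.495 CPM in control (log2 fold change 5.12 ± 0.16, adjusted p = 3.76e-18, edgeR). Every M1 library lay far above every control library, a 34.8-fold difference. The gene lies on chromosome 11 (5689790 to 5710863) beside TRIM5, TRIM34 and TRIM6.

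Of the interferon-induced members, TRIM34, TRIM56 and TRIM38 were also at least 2-fold higher. TRIM34, a relative of TRIM5 that also binds retroviral capsids, had 5.58, 4.54 and 4.06 CPM in M1 medium and 1.85, 1.98 and 1.67 CPM in control (log2 fold change 1.37 ± 0.17, adjusted p = 2.05e-07, edgeR). Its reads cannot be told apart from those of the read-through gene TRIM6-TRIM34, which had 5.42 ± 0.713 CPM in M1 medium and 2.15 ± 0.179 CPM in control, and its locus also overlaps TRIM5. TRIM56, an adjustor of the DNA-sensing and Toll-like receptor pathways, had 82.3, 73.2 and 90.2 CPM in M1 medium against 34.7, 32.5 and 34.4 CPM in control (log2 fold change 1.27 ± 0.10, adjusted p = 7.62e-11, edgeR). TRIM38, a regulator of TAB2 and of sensor signalling, had 41.98, 43 and 40.1 CPM in M1 medium against 18.6, 16.5 and 20.6 CPM in control (log2 fold change 1.17 ± 0.08, adjusted p = 4.30e-12, edgeR). In each of these genes the lowest M1 library was above the highest control library.

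The remaining 5 rose by less than 2-fold. TRIM21, the cytosolic antibody receptor known as Ro52, had 29.8, 27.8 and 25.6 CPM in M1 medium and 13.8, 15.2 and 16.6 CPM in control (log2 fold change 0.86 ± 0.08, adjusted p = 1.94e-09, edgeR). TRIM25, the ligase that ubiquitinates the RNA sensor RIG-I, had 191, 179.5 and 194 CPM in M1 medium and 123, 112 and 122 CPM in control (log2 fold change 0.66 ± 0.05, adjusted p = 2.46e-10, edgeR). The M1 and control libraries stood apart in both genes. TRIM14, a RING-less adaptor of the mitochondrial antiviral complex, had 67.4, 69.6 and 75.7 CPM in M1 medium against 52.6, 46.8 and 50.4 CPM in control (log2 fold change 0.51 ± 0.06, adjusted p = 3.47e-07, edgeR). TRIM5, which recognises retroviral capsids, had 43.9, 45.9 and 43.9 CPM in M1 medium against 33.3, 29.2 and 32.8 CPM in control (log2 fold change 0.49 ± 0.07, adjusted p = 1.42e-06, edgeR). The groups did not overlap in either gene.
TRIM26, a ligase reported to act on nuclear IRF3, stood at the edge of the threshold. It had 76.5, 73.5 and 78.05 CPM in M1 medium and 71.6, 69.8 and 67.9 CPM in control (log2 fold change 0.12 ± 0.05, adjusted p = 0.0462, edgeR). The groups did not overlap, but the call ended without M1 replicate 1 (0.12) or 3 (0.10), without control replicate 2 (0.13) or 3 (0.11), without the filter on low counts (0.12), in a fit of the 2 groups alone (0.12) and with the length trend removed (0.11).

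**Figure D2:**
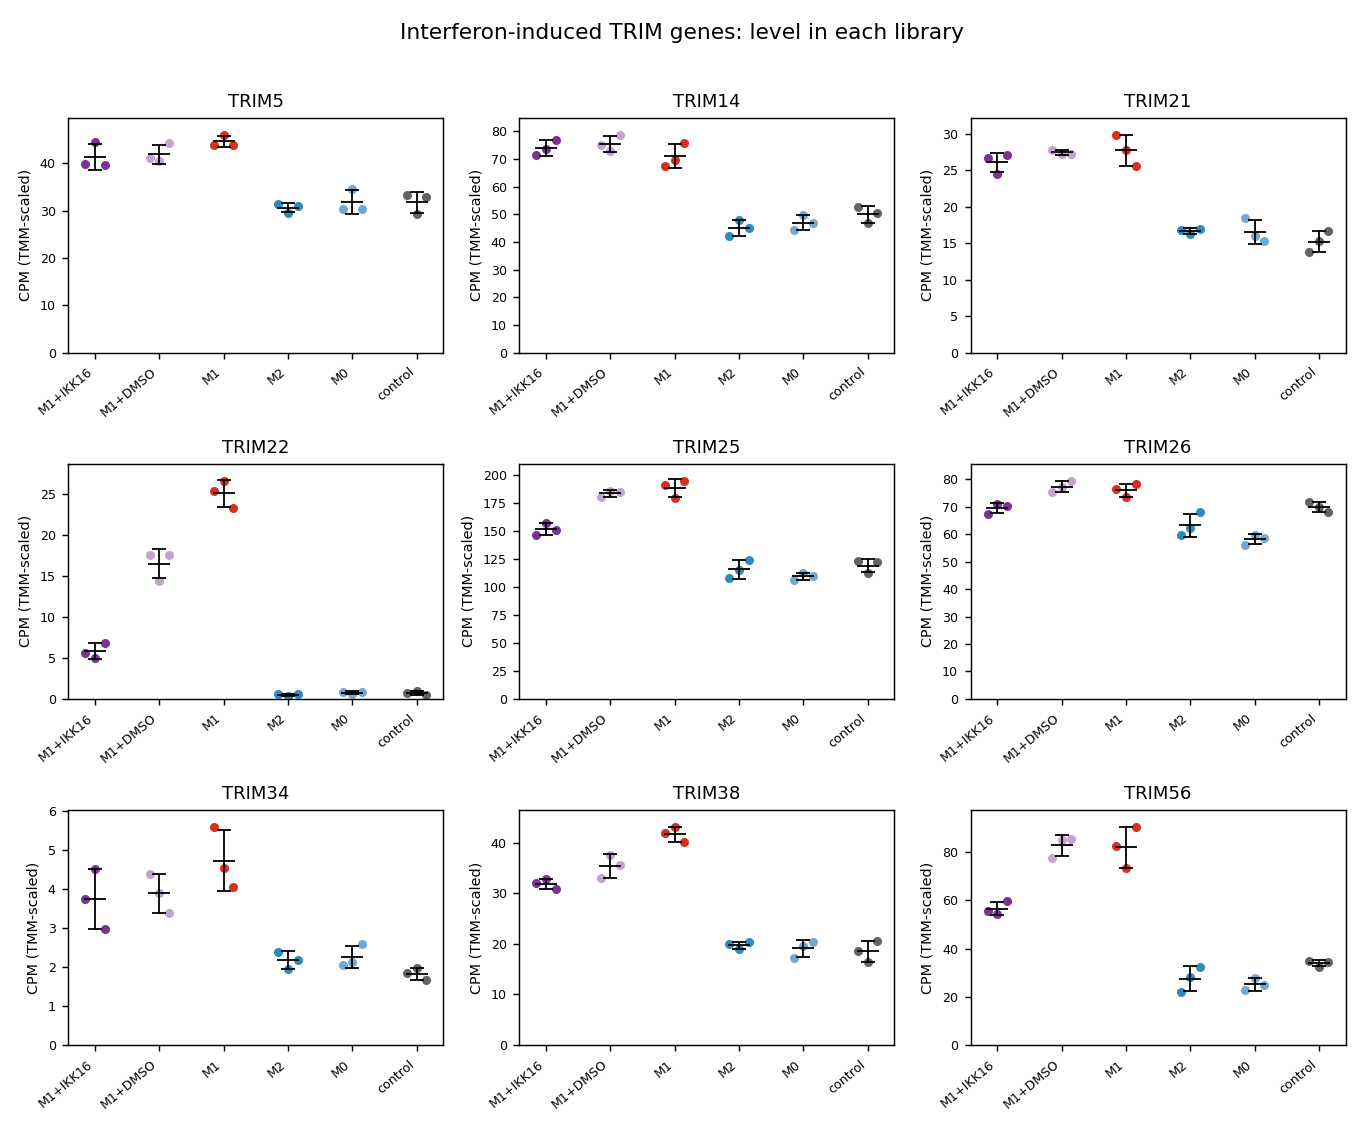
CPM of the interferon-induced TRIM members in each library, with groups from left to right M1 with IKK16, M1 with DMSO, M1, M2, M0 and control (points are libraries, bars the mean of 3 with SD). TRIM22 averages 25.1 ± 1.67 CPM in M1 medium, 0.5003 ± 0.1002 in M2 medium, 0.761 ± 0.1498 in M0 medium and 0.725 ± 0.214 in control.

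The members that are not classed as interferon-induced moved both ways. Among those higher in M1 medium, 4 were at least 2-fold higher. TRIM29, a RING-less member also called ATDC and typical of basal epithelium, had 5.01, 4.71 and 4.68 CPM in M1 medium and 1.78, 1.77 and 1.39 CPM in control (log2 fold change 1.55 ± 0.20, adjusted p = 4.19e-07, edgeR). TRIM47 had 62.5, 65.2 and 69.5 CPM in M1 medium and 24.1, 29.5 and 22.8 CPM in control (log2 fold change 1.37 ± 0.09, adjusted p = 3.41e-12, edgeR). TRIM16, which takes part in the clearance of damaged lysosomes, had 62.6, 66.8 and 64.5 CPM in M1 medium and 30.7, 27.9 and 28.9 CPM in control (log2 fold change 1.15 ± 0.05, adjusted p = 6.95e-15, edgeR). The M1 and control libraries of all 3 genes were separate. TRIM6, which makes the unanchored ubiquitin chains that activate IKBKE, stayed under 1 CPM, with 0.634, 0.614 and 0.753 CPM in M1 medium and 0.4296, 0.247 and 0.278 CPM in control (log2 fold change 1.05 ± 0.36, adjusted p = 0.0143, edgeR). Its call ended without M1 replicate 3 (0.96) and without control replicate 2 (0.92) or 3 (0.96) and by DESeq2 (1.07), and its locus overlaps TRIM5 and TRIM6-TRIM34.

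The other rises were smaller than 2-fold. TRIM8, which is known to promote NF-kB signalling, had 110.3, 109 and 126 CPM in M1 medium and 80.4, 78.2 and 76.3 CPM in control (log2 fold change 0.55 ± 0.06, adjusted p = 1.99e-08, edgeR). TRIM32, the NHL-repeat ligase of limb-girdle muscular dystrophy, had 26.03, 25.3 and 24.7 CPM in M1 medium and 17.1, 17.4 and 19.1 CPM in control (log2 fold change 0.50 ± 0.07, adjusted p = 7.98e-07, edgeR). TRIM27 had 157, 156 and 166 CPM in M1 medium and 113, 117 and 116 CPM in control (log2 fold change 0.47 ± 0.04, adjusted p = 2.35e-09, edgeR). These 3 genes again showed no overlap of the groups. TRIM44, which lacks a RING finger, had 116, 111 and 124 CPM in M1 medium and 87.6, 77.9 and 90.8 CPM in control (log2 fold change 0.45 ± 0.07, adjusted p = 8.24e-06, edgeR). TRIM62 had 18.4, 15.2 and 21.02 CPM in M1 medium and 14.4, 14.1 and 14.2 CPM in control (log2 fold change 0.35 ± 0.10, adjusted p = 0.00356, edgeR), and its log2 fold change was 0.24 without M1 replicate 3, the highest library. TRIM4, a further ligase of RIG-I, was higher by 0.33 ± 0.06 on the log2 scale (edgeR adjusted p = 1.38e-05).

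Of the falls, 4 were of at least 2-fold. TRIM2, an NHL-repeat ligase of neurofilament light chain, measured 2.09, 2.42 and 2.33 CPM in M1 medium and 8.82, 8.62 and 10.7 CPM in control (log2 fold change -2.04 ± 0.14, adjusted p = 1.46e-11, edgeR). All 9 of its coding transcripts were lower, by -2.65 to -1.99 on a log2 scale of CPM with 0.1 added. TRIM46, a COS-box organiser of microtubules in the axon, measured 3.203, 3.55 and 3.96 CPM in M1 medium and 9.32, 10.04 and 7.61 CPM in control (log2 fold change -1.33 ± 0.14, adjusted p = 1.39e-08, edgeR). TRIM3, the closest relative of TRIM2, measured 9.703, 10.7 and 9.53 CPM in M1 medium and 21.8, 24.9 and 21.02 CPM in control (log2 fold change -1.18 ± 0.09, adjusted p = 1.06e-10, edgeR). In all 3 genes each M1 library was below each control library. TRIM7, a glycogenin-interacting protein, measured 1.87, 1.74 and 1.96 CPM in M1 medium and 4.33, 4.31 and 3.71 CPM in control (log2 fold change -1.14 ± 0.14, adjusted p = 2.19e-07, edgeR), again without overlap.

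Smaller falls followed in members with a membrane anchor or other C-terminal domains. TRIM59, which has a transmembrane segment, measured 10.9, 11.2 and 10.9 CPM in M1 medium and 17.9, 18.9 and 19.3 CPM in control (log2 fold change -0.76 ± 0.09, adjusted p = 4.95e-08, edgeR). It shares exons with the read-through gene TRIM59-IFT80, which was also lower (116.7 ± 2.85 CPM in M1 medium, 218.2 ± 13.1 CPM in control), so reads of the 2 genes are not independent. TRIM36, a COS-box protein, measured 10.6, 9.55 and 9.63 CPM in M1 medium and 16.1, 13.5 and 19.5 CPM in control (log2 fold change -0.73 ± 0.10, adjusted p = 2.18e-06, edgeR). TRIM45, whose C-terminal domain is a filamin repeat, measured 4.19, 5.25 and 5.37 CPM in M1 medium and 8.13, 8.62 and 7.51 CPM in control (log2 fold change -0.71 ± 0.13, adjusted p = 3.38e-05, edgeR). TRIM13, anchored in the endoplasmic reticulum, measured 12.02, 13.04 and 12.1 CPM in M1 medium and 18.9, 19.5 and 21.3 CPM in control (log2 fold change -0.69 ± 0.08, adjusted p = 3.59e-08, edgeR). The groups were separate in all 4 genes. TRIM37 (-0.60 ± 0.07), a MATH-domain ligase of centrosomes, TRIM11 (-0.24 ± 0.06), TRIM65 (-0.24 ± 0.07) and TRIM61 (-0.30 ± 0.12) were also called lower on the log2 scale. The TRIM61 call ended without M1 replicate 2 (-0.23) and without control replicate 1 (-0.30) or 3 (-0.21), by DESeq2 (-0.30), in a fit of the 2 groups alone (-0.30) and with the length trend removed (-0.25), and its groups overlap.

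**Figure D3:**
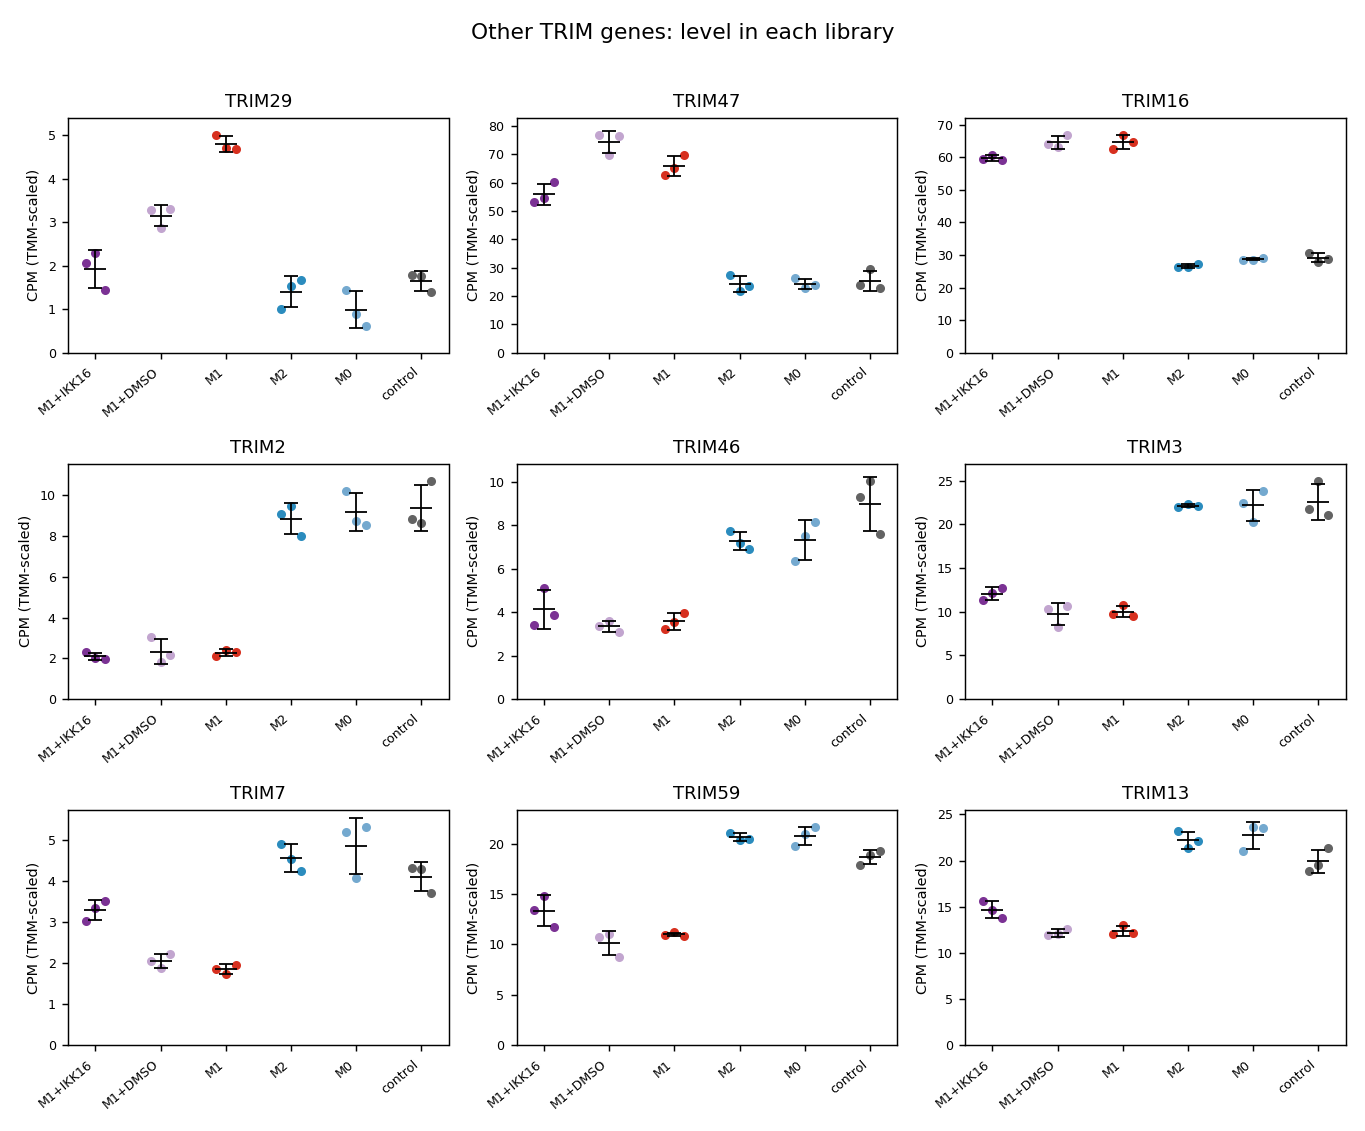
CPM of 9 TRIM members outside the interferon-induced list in each library, with groups from left to right M1 with IKK16, M1 with DMSO, M1, M2, M0 and control (points are libraries, bars the mean of 3 with SD). TRIM29, TRIM47 and TRIM16 are higher in M1 medium than in control, for instance TRIM16 at 64.7 ± 2.11 against 29.1 ± 1.43 CPM, and the 6 others are lower, for instance TRIM2 at 2.28 ± 0.1695 against 9.38 ± 1.14 CPM.

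Sorted by C-terminal domain, the 22 tested PRY-SPRY members held 14 called higher and 4 lower, with a median log2 fold change of 0.411 in M1 medium, beside 32.9% higher and 31.9% lower and a median of -0.001 over all genes tested. Outside that class, TRIM32 was the NHL member that was higher while TRIM2 and TRIM3 were lower, and both tested COS-FN3-SPRY members (TRIM36 and TRIM46) and both transmembrane members (TRIM13 and TRIM59) were lower. The 4 PHD-bromodomain members split into 2 lower (TRIM24 and TRIM28) and 2 not called (TRIM33 at 0.14 ± 0.09 and TRIM66 at 0.07 ± 0.12). Most of the interferon-induced members are in the PRY-SPRY class, so its count is not separate from theirs.

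A set of 5 members is linked to androgen action, and 4 of them were lower in M1 medium, beside 31.9% of all genes tested. TRIM24, a co-activator of the androgen receptor, had 40.5, 36.6 and 41.02 CPM in M1 medium and 56.4, 54.5 and 64.5 CPM in control (log2 fold change -0.57 ± 0.08, adjusted p = 6.25e-07, edgeR). TRIM68, also described as a co-activator of that receptor in prostate cancer cells, had 66.6, 64.5 and 65.7 CPM in M1 medium and 95.8, 93.2 and 92.7 CPM in control (log2 fold change -0.52 ± 0.05, adjusted p = 1.70e-09, edgeR). TRIM28, the co-repressor KAP1, had 586, 535 and 609 CPM in M1 medium and 756, 740.3 and 704 CPM in control (log2 fold change -0.35 ± 0.05, adjusted p = 1.07e-06, edgeR). None of these 3 genes overlapped between the groups. TRIM36 was the other lower member and TRIM25 the higher one. The androgen receptor itself stood at 135 ± 8.08 CPM in M1 medium and 379.8 ± 29.4 CPM in control, and its target KLK3 at 154 ± 6.79 and 3720 ± 228 CPM. Whether these levels have a part in the TRIM changes was not tested.

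Levels of different members were compared per length of transcript, for the 69 members with a length. TRIM28 was the highest in M1 medium and in control, with 194.8 and 247.8 CPM per kb, and TRIM27 the next, with 53.8 and 38.97. In M1 medium TRIM25 came after it at 32.8 CPM per kb (20.8 in control) and TRIM47 after that at 29.03 (11.2 in control), while in control TRIM11 stood at 30.8 CPM per kb (26.09 in M1 medium), above both. TRIM8, TRIM37, TRIM39 and TRIM52 had no length and are not in this order. Lengths came from the matching GENCODE 29 transcript, which for some members, TRIM68 among them, is far shorter than the locus would give, so TRIM68 is left out of this order.

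The call was not reached in M1 medium for 11 tested members. TRIM23, TRIM35, TRIM41 and TRIM52 had log2 fold changes between -0.11 and 0.04, with SE of 0.066 to 0.090. TRIM17 (0.22 ± 0.25) and TRIM54 (0.09 ± 0.22) had wider errors, which leave room for changes in either direction. TRIM73 and TRIM74 are near-identical copies with the same levels in these libraries (1.11 ± 0.1696 CPM in M1 medium and 0.715 ± 0.252 CPM in control, edgeR adjusted p = 0.0656 and 0.06305), and their reads cannot be told apart. TRIM39 (0.15 ± 0.08, edgeR adjusted p = 0.0813) overlaps the read-through gene TRIM39-RPP21.

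M1 medium was also set against the other macrophage media. The 9 tested interferon-induced members were higher than in M2 medium and higher than in M0 medium, with TRIM22 at 25.1 ± 1.67 CPM in M1 medium against 0.5003 ± 0.1002 CPM in M2 medium (log2 fold change 5.64 ± 0.17, adjusted p = 2.19e-18, edgeR) and 0.761 ± 0.1498 CPM in M0 medium (log2 fold change 5.03 ± 0.16, adjusted p = 6.16e-18, edgeR). Of the 45 tested members, 25 were higher and 13 lower than in M2 medium, beside 34.3% and 33.2% of all genes tested, and 24 were higher and 14 lower than in M0 medium, beside 34.2% and 33.0%. Both counts of higher members hold TRIM73 and TRIM74, whose reads cannot be told apart. The calls of both against M2 medium ended without M1 replicate 1 (0.82) or 3 (0.77) and without M2 replicate 2 (0.74). TRIM2 (-1.96 against M2 medium and -2.01 against M0 medium), TRIM7 (-1.30 and -1.39), TRIM3 (-1.15 and -1.15) and TRIM46 (-1.03 and -1.04) had the largest falls in log2 fold change. TRIM33, a regulator of SMAD4, stood at 0.28 ± 0.09 against M2 medium, and TRIM41 at 0.24 ± 0.07, both called higher. The TRIM33 call against M2 medium ended without M2 replicate 1 (0.18) and, with the trend of fold change with transcript length removed, at 0.11. Calls of TRIM6, TRIM11 and TRIM66 against M2 medium and of TRIM11 and TRIM65 against M0 medium also ended under some alternatives. These comparisons share the M1 libraries with the one against control, so they are no separate support for it.

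Few members were called in M0 or M2 medium against control. At an unadjusted p under 0.05 in edgeR, 12 members were lower and 2 higher in M0 medium, beside 2390 and 2464 of all 17020 genes tested. After adjustment 4 members were lower and 0 higher, beside 5.14% and 6.69% of all genes tested. Those shares moved both ways with single libraries. Leaving out control replicate 1 gave 0.0406% lower and 0.134% higher, and leaving out control replicate 3 gave 1.92% and 4.11%. Without control replicate 2 they rose to 6.96% and 8.92%, and without M0 replicate 2 to 6.02% and 7.58%. With M0 replicate 1 omitted they were 0.0812% and 0.307%, and with M0 replicate 3 omitted 1.49% and 3.6%. TRIM56 had 22.7, 28 and 25.01 CPM in M0 medium and 34.7, 32.5 and 34.4 CPM in control (log2 fold change -0.42 ± 0.10, adjusted p = 0.0165, edgeR). TRIM41 had 49.3, 50.1 and 46.6 CPM in M0 medium and 63.8, 60.2 and 56.3 CPM in control (log2 fold change -0.30 ± 0.07, adjusted p = 0.0119, edgeR). TRIM26 had 56.2, 59.6 and 58.6 CPM in M0 medium and 71.6, 69.8 and 67.9 CPM in control (log2 fold change -0.26 ± 0.05, adjusted p = 0.00993, edgeR). No library of these 3 genes crossed between the groups, yet each call ended without M0 replicate 1 (TRIM56 -0.35, TRIM41 -0.31, TRIM26 -0.24) and without control replicate 1 (-0.40, -0.25 and -0.24). TRIM44 had 64.98, 77.8 and 75.95 CPM in M0 medium and 87.6, 77.9 and 90.8 CPM in control (log2 fold change -0.23 ± 0.07, adjusted p = 0.0448, edgeR), and its call ended without M0 replicate 1 (-0.15) or 3 (-0.25) and without control replicate 1 (-0.21) or 3 (-0.17), as it did when no other groups were fitted (-0.23).
In M2 medium TRIM44 was the single member called, lower, with 66.4, 73.3 and 78.5 CPM against 87.6, 77.9 and 90.8 CPM in control (log2 fold change -0.23 ± 0.07, adjusted p = 0.0471, edgeR). M2 replicate 3 lies above control replicate 2, and the call ended without M2 replicate 1 (-0.17) or 2 (-0.24) and without control replicate 1 (-0.22) or 3 (-0.18), as it did when no other groups were fitted (-0.23). At an unadjusted p under 0.05 in edgeR, 1 member was higher and 11 lower in M2 medium, beside 2305 and 2141 of all 17020 genes tested. After adjustment no member was called higher, beside 5.28% higher and 3.48% lower of all genes tested. Those shares fell to 0.592% and 0.372% when control replicate 1 was omitted. Omitting an M2 library gave 0.511% and 0.459% for replicate 1, 1.37% and 0.685% for replicate 2, and 8.79% and 6.65% for replicate 3. In both media the log2 fold change of a gene went with its transcript length across 15134 genes (Spearman rho -0.338 for M0 and -0.294 for M2 medium against control). With that trend removed TRIM44 was at -0.08 in M0 medium and -0.13 in M2 medium, neither called. Between M2 and M0 medium edgeR called 0 of the 45 members, beside 0.0% higher and 0.106% lower of all genes tested, and DESeq2 also called 0 members. At an unadjusted p under 0.05 in edgeR there was 1 member, beside 931 of all 17020 genes tested.

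IKK16 was compared with DMSO within M1 medium. Of the 45 tested members 5 were higher, 11 lower and 29 not called, beside 14.4% higher and 12.9% lower of all genes tested. Among the 9 interferon-induced members TRIM22, TRIM56, TRIM25 and TRIM26 were lower and the others were not called, with 0 higher (also 0 at an unadjusted p under 0.05 in edgeR).

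TRIM22 had 5.56, 4.96 and 6.86 CPM with IKK16 and 17.5, 14.4 and 17.6 CPM with DMSO (log2 fold change -1.50 ± 0.12, adjusted p = 2.44e-09, edgeR), the largest change among the members. TRIM56 had 55.5, 54.3 and 59.6 CPM with IKK16 and 77.7, 85.1 and 85.5 CPM with DMSO (log2 fold change -0.55 ± 0.10, adjusted p = 0.000156, edgeR). TRIM25 had 147, 157 and 151 CPM with IKK16 and 180.1, 186 and 185 CPM with DMSO (log2 fold change -0.28 ± 0.05, adjusted p = 0.0005299, edgeR). The IKK16 and DMSO libraries of all 3 genes were separate, and these calls held under each of the 15 alternatives tried. TRIM26 had 67.5, 71.1 and 70.2 CPM with IKK16 and 75.5, 77.01 and 79.3 CPM with DMSO (log2 fold change -0.15 ± 0.05, adjusted p = 0.0415, edgeR), and its call ended when any of the 6 libraries was left out (-0.17 to -0.14) and without the filter on low counts (-0.16).
Among interferon-induced members that were not called, TRIM38 had 31.9, 32.7 and 30.9 CPM with IKK16 and 32.95, 37.6 and 35.6 CPM with DMSO (log2 fold change -0.15 ± 0.08, adjusted p = 0.1404, edgeR). TRIM34 had 3.73, 4.505 and 2.97 CPM with IKK16 and 4.38, 3.896 and 3.39 CPM with DMSO (log2 fold change -0.06 ± 0.16, adjusted p = 0.833, edgeR). These groups overlap for TRIM34 and lie side by side for TRIM38. TRIM21 (-0.07 ± 0.08), TRIM14 (-0.03 ± 0.06) and TRIM5 (-0.02 ± 0.07) stood within 1 SE of 0 on the log2 scale, which leaves room for small changes in either direction. Whether the members differ from each other in their response to IKK16 was not tested.

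Of the 36 tested members outside the interferon-induced list, 5 were higher with IKK16 (13.9%) and 7 lower (19.4%). Of all genes tested, 14.4% were higher and 12.9% lower. TRIM7 had 3.02, 3.36 and 3.51 CPM with IKK16 and 2.06, 1.89 and 2.23 CPM with DMSO (log2 fold change 0.68 ± 0.15, adjusted p = 0.00144, edgeR). TRIM59 had 13.4, 14.8 and 11.7 CPM with IKK16 and 10.7, 11.03 and 8.78 CPM with DMSO (log2 fold change 0.39 ± 0.09, adjusted p = 0.00287, edgeR). TRIM68 had 90.8, 92.2 and 84.9 CPM with IKK16 and 75.4, 72.5 and 75.6 CPM with DMSO (log2 fold change 0.26 ± 0.05, adjusted p = 0.000251, edgeR). All 3 were higher in every IKK16 library than in any DMSO library. TRIM3 had 11.3, 12.1 and 12.7 CPM with IKK16 and 10.3, 8.27 and 10.6 CPM with DMSO (log2 fold change 0.32 ± 0.10, adjusted p = 0.0207, edgeR), a call that ended without DMSO replicate 2 (0.20) and without IKK16 replicate 2 (0.31) or 3 (0.27). TRIM13 had 15.7, 14.7 and 13.7 CPM with IKK16 and 11.9, 11.99 and 12.6 CPM with DMSO (log2 fold change 0.27 ± 0.08, adjusted p = 0.0138, edgeR), a call that ended without DMSO replicate 2 (0.26) and without IKK16 replicate 1 (0.21). Prostate epithelium markers moved in the same comparison: KLK3 had 439 ± 32.1 CPM with IKK16 and 196 ± 16.1 CPM with DMSO, and the 10 markers summed to 3365 to 3437 CPM with IKK16 and 2803 to 2886 CPM with DMSO. Their part in the TRIM changes was not tested.

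TRIM29 had 2.07, 2.29 and 1.45 CPM with IKK16 and 3.29, 2.88 and 3.31 CPM with DMSO (log2 fold change -0.70 ± 0.21, adjusted p = 0.0164, edgeR), lower in every IKK16 library. That call ended without DMSO replicate 3 (-0.67) and without IKK16 replicate 3 (-0.53). TRIM47 had 52.97, 54.5 and 60.2 CPM with IKK16 and 76.8, 69.7 and 76.5 CPM with DMSO (log2 fold change -0.41 ± 0.09, adjusted p = 0.000975, edgeR), and TRIM41, a ligase of protein kinase C, had 54.6, 57.7 and 56.4 CPM with IKK16 and 72.8, 67.3 and 70.6 CPM with DMSO (log2 fold change -0.32 ± 0.07, adjusted p = 0.000933, edgeR). Neither gene overlapped between the groups. TRIM17 had 0.477, 0.451 and 0.458 CPM with IKK16 and 0.969, 0.659 and 0.885 CPM with DMSO (log2 fold change -0.83 ± 0.29, adjusted p = 0.0355, edgeR), all under 1 CPM. The TRIM17 call ended without DMSO replicate 1 (-0.72) or 3 (-0.78), without any one IKK16 library (-0.86 to -0.82), by DESeq2 (-0.85), without the filter on low counts (-0.84) and when no other groups were fitted (-0.84). TRIM45 (-0.41 ± 0.14), TRIM35 (-0.23 ± 0.08) and TRIM8 (-0.21 ± 0.06) were also called lower on the log2 scale. The TRIM45 call ended without DMSO replicate 1 (-0.38) or 2 (-0.36) and without IKK16 replicate 1 (-0.44) or 3 (-0.26), the TRIM35 call without any one DMSO library (-0.24 to -0.23) or IKK16 replicate 1 (-0.21), and the TRIM8 call without IKK16 replicate 1 (-0.19).

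The M1 and control libraries and the IKK16 and DMSO libraries are 4 separate groups, so their calls can be set side by side. Of the 19 members higher in M1 medium than in control, 7 were lower with IKK16 than with DMSO (4 interferon-induced, and TRIM29, TRIM47 and TRIM8), 12 were not called and none was higher. Over all genes tested, 30.0% of the 5600 higher in M1 medium were lower with IKK16 and 5.54% were higher. Of the 15 members lower in M1 medium, 5 were higher with IKK16 (TRIM3, TRIM7, TRIM13, TRIM59 and TRIM68), 1 was lower (TRIM45) and 9 were not called, among them TRIM2, with 2.31, 2.01 and 1.98 CPM with IKK16 and 3.03, 1.798 and 2.16 CPM with DMSO (log2 fold change -0.12 ± 0.19, adjusted p = 0.678, edgeR). Over all genes tested, 30.9% of the 5422 lower in M1 medium were higher with IKK16 and 2.23% were lower. Of the 11 members not called in M1 medium, TRIM17, TRIM35 and TRIM41 were lower with IKK16 and the other 8 were not called. Over all genes tested, 6.65% of the 5998 not called in M1 medium were lower with IKK16 and 7.84% were higher.

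**Figure D4:**
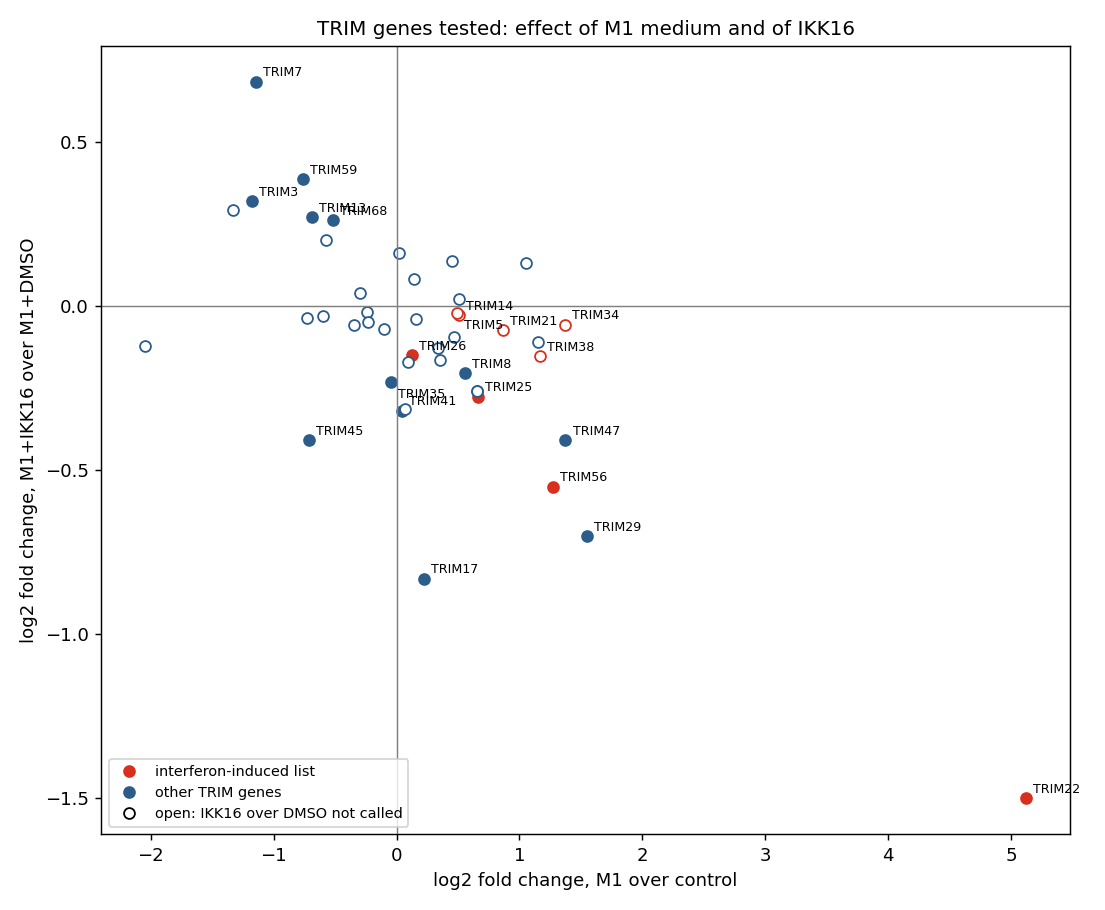
Log2 fold change of each of the 45 tested TRIM members in M1 medium against control (horizontal axis) and in M1 medium with IKK16 against M1 medium with DMSO (vertical axis), interferon-induced members in red and others in blue. TRIM22 stands alone at 5.12 and -1.50, and TRIM2 lies far left at -2.04 with a value of -0.12 on the vertical axis.

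Against control, M1 medium with IKK16 left 17 members higher and 13 lower, beside 27.0% and 25.4% of all genes tested. This comparison joins the medium, the inhibitor and the solvent, which the control did not receive, and it shares the control with the comparison of M1 medium. Of the interferon-induced members 8 were higher, with TRIM22 at 5.79 ± 0.974 CPM with IKK16 against 0.725 ± 0.214 CPM in control (log2 fold change 3.01 ± 0.19, adjusted p = 4.31e-12, edgeR). TRIM26 was not (69.6 ± 1.89 CPM with IKK16, 69.7 ± 1.86 CPM in control). TRIM29 was not called either, at 1.94 ± 0.437 CPM with IKK16 and 1.65 ± 0.222 CPM in control (log2 fold change 0.23 ± 0.23, adjusted p = 0.4205, edgeR), nor was TRIM68, at 89.3 ± 3.89 and 93.9 ± 1.66 CPM (log2 fold change -0.07 ± 0.05, adjusted p = 0.213, edgeR). TRIM2 was lower at 2.098 ± 0.179 CPM with IKK16 and 9.38 ± 1.14 CPM in control (log2 fold change -2.16 ± 0.15, adjusted p = 2.53e-11, edgeR). TRIM7 was called lower at -0.32 ± 0.13 on the log2 scale, a call that ended in 10 of 15 alternatives, including the leaving out of any one library but control replicate 3.

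The solvent by itself was measured by M1 medium with DMSO against M1 medium alone, where 2 members were higher and 1 lower, beside 2.22% and 2.03% of all genes tested. Each of the 6 libraries moved those shares when left out, to between 0.157% higher and 0.256% lower (without M1 replicate 2) and 5.0% and 3.63% (without M1 replicate 3). TRIM22 was the lower one, with 17.5, 14.4 and 17.6 CPM with DMSO and 25.4, 26.6 and 23.2 CPM without it (log2 fold change -0.61 ± 0.11, adjusted p = 0.00333, edgeR), and no library overlapped. TRIM68 (log2 fold change 0.18 ± 0.05, adjusted p = 0.03197, edgeR) and TRIM28 (log2 fold change 0.17 ± 0.05, adjusted p = 0.0424, edgeR) were higher. Each of these 2 calls ended when M1 replicate 1 or 2 or any one DMSO library was left out (TRIM68 0.18 to 0.21, TRIM28 0.13 to 0.19), that of TRIM68 also with the length trend removed (0.18) and that of TRIM28 with the replicate block (0.17).

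The genes that act with TRIM ligases were read from lists of their partners. All 13 tested signalling partners and substrates were higher in M1 medium than in control (CGAS had too few counts), beside 32.9% of all genes tested. They include the RNA sensors RIGI (30.7 ± 0.302 CPM in M1 medium, 5.5 ± 0.796 in control, log2 fold change 2.47 ± 0.09) and IFIH1 (1.51 ± 0.09), the kinase IKBKE (39.4 ± 0.4599 CPM in M1 medium, 5.84 ± 1.22 in control, log2 fold change 2.75 ± 0.11) and the autophagy receptor SQSTM1 (3.18 ± 0.05). All 7 genes of the interferon signal were higher as well, led by IRF1 (108 ± 2.37 CPM in M1 medium, 4.03 ± 0.182 in control, log2 fold change 4.75 ± 0.12), the interferon gamma receptor chain IFNGR1 (3.80 ± 0.09) and IRF9 (2.44 ± 0.11), with STAT2 at 0.54 ± 0.07. Of the 8 ubiquitin-conjugating enzymes and cofactors 4 were higher and 3 lower in M1 medium (beside 32.9% and 31.9% of all genes tested). UBE2D3, a frequent partner of RING ligases, was at 0.56 ± 0.05 and UBE2N, which builds ubiquitin chains used in signalling, at -0.45 ± 0.06.
With IKK16 against DMSO, 6 of the 7 interferon signal genes were lower, for instance IRF1 (59.9 ± 3.74 CPM with IKK16, 96.7 ± 8.53 with DMSO, log2 fold change -0.69 ± 0.10) and IRF9 (-0.60 ± 0.10), while IFNAR1 (-0.06 ± 0.07) was not called. Of the signalling partners 7 were lower and RIGI was higher (0.27 ± 0.08). Of all genes tested 12.9% were lower and 14.4% higher in that comparison.
Relatives of the family under other symbols were PML, which forms nuclear bodies and is interferon-induced, MID1 and MID2, which bind microtubules, and MEFV, or pyrin. PML had 51.5 ± 2.101 CPM in M1 medium and 25.96 ± 1.56 CPM in control (log2 fold change 0.99 ± 0.07, adjusted p = 8.46e-12, edgeR), and 37.3 ± 1.12 CPM with IKK16 and 52.8 ± 1.67 CPM with DMSO (log2 fold change -0.50 ± 0.07, adjusted p = 5.63e-06, edgeR). MID2 was higher (0.34 ± 0.07) and MEFV lower (-1.08 ± 0.45, under 1 CPM) in M1 medium, and MID1 was not called (-0.44 ± 0.29).

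How reads were shared between genes limits some members. The use of strand is not given in the sources used here, so members that overlap a neighbour (TRIM13 with KCNRG, TRIM14 with NANS, TRIM35 with PTK2B, TRIM62 with AZIN2 and TRIM66 with RPL27A, beside those named above) may hold reads of it. The TRIM49, TRIM43 and TRIM64 genes are near-identical copies, and none passed the filter.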

How the data were processed

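Polyadenylated RNA of 18 LNCaP libraries (6 groups of 3, grouped by the labels) was analysed. The values deposited by the authors are expected counts of RefSeq transcripts, in multiples of 0.5 and without normalisation. Per the submitters' processing notes, the build was hg38 and the tools were Trimmomatic, BWA 0.7.17 and HOMER 4.10. What each tool did, whether strand was used and how multiply matching reads were handled is not given in the sources used here. Of 70507 transcripts, 69824 were named with an NCBI RefSeq gene table of GRCh38.p14 and 333 with GENCODE 29. The other 350, with 0.0916 to 0.1115% of a library's counts, were left aside. Each gene was represented by its most counted transcript, a coding one where the gene had any, because reads shared by transcripts appear in each. Counts were rounded to whole numbers.

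edgeR 4.0.16 in R 4.3.3 was used on all 18 libraries with TMM scaling, filterByExpr (17020 genes kept, 11067 left out), 1 mean per group and two-sided quasi-likelihood tests, with Benjamini-Hochberg adjustment over all genes kept. The SE was taken as the size of the log2 fold change over the root of its F statistic. The common biological coefficient of variation was 0.0627. The scripts were checked on simulated counts with known changes. A count of 0 allows up to 3 counts, a limit that covers counting error only, since reads amplified without molecular identifiers are not independent molecules. Replicates carry numbers in the labels, and nothing there says that they come from separate cultures, so p-values measure only the spread between these libraries, possibly a technical one.

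The members, the lists (interferon-induced, domain classes, androgen-linked, partners, markers) and the tests were chosen with earlier results of these data known. Per-library values were given for interferon-induced members, for the other members with the 8 largest rises and 8 largest falls in M1 medium that reach 1 CPM, for the 5 largest each way with IKK16, and for the 3 largest each way in the other comparisons with control, between M2 and M0 medium and with DMSO. TRIM6, TRIM17, TRIM24, TRIM28, TRIM41, TRIM68 and the remaining members named beside them were described under the lists or after their values were seen. Alternatives were DESeq2 1.42.0 and its size factors, no filter, a filter of 1 CPM in 3 libraries, 2 groups alone, a block for replicate number, the longest coding transcript, the highest transcript of any kind, removal of the trend of fold change with transcript length (lowess span 0.3, lengths for 87.8% of genes and 69 of 73 members), and each library left out in turn. Promoter sequences came from RefSeq windows of GRCh38.p14. A gene of the interferon signal list and a promoter motif are not reported here.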

Additional observations from a re-analysis of the deposited data

How the results depend on the processing

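Counts of members called in M1 medium against control, M2 or M0 medium stayed within 1.5 times of the reported ones under every alternative tried, as did those of IKK16 against control. For IKK16 against DMSO that held for the alternatives on scaling, test, filter, transcript and block. With 1 library left out in turn, the members higher numbered 17 to 19 and lower 14 to 15 in M1 medium against control, and higher 3 to 5 and lower 6 to 9 with IKK16 against DMSO. They numbered lower 0 to 6 in M0 medium and lower 0 to 5 in M2 medium against control, and higher 0 to 7 with DMSO against M1 medium. The 2 members higher with DMSO against M1 medium became 4 by DESeq2 and 1 with the replicate block. The 1 lower there became 2 by DESeq2, 2 with no filter, 3 when only the 2 groups were fitted and 2 with the length trend removed. The 1 lower in M2 medium became 4 by DESeq2, 2 with no filter, 0 when only the 2 groups were fitted, 2 with the replicate block and 0 with the length trend removed. Of the values of named members under alternatives, 677 kept their direction and side of the threshold, 53 kept their direction and lost the call, and 4, none of them called, changed sign. Those 4 are IKK16 against DMSO for TRIM5 (0.014 without DMSO replicate 3, 0.0040 without IKK16 replicate 3, and -0.078 to 0.014 over all libraries left out) and for TRIM34 (0.025 without DMSO replicate 1, 0.081 without IKK16 replicate 3, and -0.21 to 0.081 over all libraries left out). The causes were not tested. The replicate numbers did not pair the libraries: deviations of libraries with the same number correlated between -0.15 and 0.153, and 6 of 18 libraries correlated best with their own number. The block therefore shows only what a shared number does. Depth limits the members under 1 CPM, TRIM6 and TRIM17, and the 28 that were not tested.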

Other observations

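TRIM63, the muscle ligase MuRF1, was among the members with too few counts for a test. It had 15 counts in the 3 M1 libraries, 11.5 with DMSO and 5.5 with IKK16, against 1.5 in M2 medium, 1 in M0 medium and 0 in control. A 0 in a single library allows up to 3 counts there, and the 0 over the 3 control libraries pooled up to 3 in all, by counting error only. It was picked out after its values were seen, and no test was run on it. TRIM72, another muscle member and the untested one with the most counts, had 19.5 counts in M1 medium, 12.5 with DMSO, 16 with IKK16, 9.5 in M2 medium, 20 in M0 medium and 9 in control.

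Among the 31 members with several coding transcripts of at least 100 counts, none had transcripts that moved in opposite directions in M1 medium against control. Most of these transcripts share nearly all of their reads, so they are not independent. The widest span after TRIM2 was that of TRIM7, whose 6 transcripts ran from -1.14 to -0.92 on the log2 scale of CPM with 0.1 added. TRIM8 and TRIM41 also have a noncoding transcript with a higher total than the coding one used here.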
